A study of Mus musculus with 17 samples.

Results

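Genes that report mechanical stress at the Z-disc were described in hearts of aged mice whose heart muscle expressed a mitochondrial DNA (mtDNA) polymerase without proofreading. The 10 members, *Ankrd1*, *Ankrd23*, *Xirp1*, *Xirp2*, *Csrp3*, *Fhl1*, *Fhl2*, *Flnc*, *Des* and *Hspb7*, were taken by symbol from a count table of 56748 genes; the list was drawn up with earlier results of these data known. All 10 were found, and all 10 passed the filter on low counts that left 16195 genes for testing. The series held bulk poly(A) RNA-seq of 17 hearts, 1 library per mouse, from 2 groups aged 12 to 16 months. The 9 hMut mice were homozygous for the inducible allele and carried 1 Cre transgene (*Polg* iMut/iMut; +/Ckmm-cre), so that the promoter of muscle creatine kinase switched *Polg*, the mtDNA polymerase, to its proofreading-deficient form. This driver acts in striated muscle, and fibroblasts, endothelial cells and leukocytes of the same heart keep the wild-type cassette. The 8 Ctrl hearts came from control mice, whose allele and Cre status is not given in the sources used here. No treatment was applied.

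The Z-disc is the border between neighbouring sarcomeres, where actin filaments, titin and the desmin network are joined, and load on the cardiac muscle cell is borne there and at the intercalated disc. Several proteins of these sites move between the sarcomere and the nucleus or change in amount when the heart is stretched or overloaded, and are therefore read as sensors of mechanical stress. *Ankrd1* encodes the ankyrin repeat protein CARP, which binds titin and is among the early markers of cardiac overload, and *Ankrd23* encodes a relative that binds the same part of titin. *Xirp1* and *Xirp2* encode Xin repeat proteins that bind actin at the intercalated disc and the Z-disc. *Csrp3* (muscle LIM protein), *Fhl1* and *Fhl2* encode LIM domain proteins, and *Fhl1* and *Fhl2* bind the elastic spring of titin. *Flnc* encodes filamin C, which crosslinks actin, *Des* encodes the intermediate filament desmin, and *Hspb7* encodes a small heat shock protein that binds filamin C and actin.

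Total counts per heart lay between 32915159 and 46486964, and the members held between 0.797% and 0.959% of the counts in Ctrl hearts and between 0.882% and 1.59% in hMut hearts. The highest shares were those of hMut replicates 6 and 9 (1.589% and 1.376%), followed by hMut replicate 5 (1.125%). These shares are of all counts, so they also depend on the part taken by mtDNA-encoded genes, which differed between the groups. *Polg*, the targeted gene, had 57.9 ± 6.08 CPM (read counts scaled to equal library size after TMM normalization, as the CPM function of edgeR gives them; SD, n = 9) in hMut and 34.7 ± 7.31 CPM (SD, n = 8) in Ctrl hearts. Its counts do not separate the mutant from the wild-type form, so they check the labels only in part. Genes encoded in mtDNA took 23.5% to 30.9% of the counts in Ctrl and 15.9% to 23.0% in hMut. The 12 cardiomyocyte markers summed to between 56550 and 67860 CPM in Ctrl and between 43150 and 67220 CPM in hMut, so the hearts had the markers of their labelled tissue. hMut replicates 6 and 9 stood apart, with marker sums of 45630 and 43150 CPM, and the count of members called and the log2 fold change of each member are also given without them. *Xist*, the RNA of the inactive X chromosome, was at 182 to 202 CPM in 5 hearts (Ctrl replicates 5, 6 and 7 and hMut replicates 1 and 4) and under 1 CPM in the other 12; sex is not given in the labels.

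Of the 10 members, 1 was higher in hMut hearts at an adjusted p under 0.05 and 0 were lower (quasi-likelihood test of edgeR, Benjamini-Hochberg adjusted over all tested genes). Of all tested genes 4.62% passed in either direction, 3.48% higher and 1.14% lower. The member that rose was *Xirp2*. Without hMut replicates 6 and 9 the test called 0 members, against 1.96% of all genes higher. At an unadjusted p under 0.05, 3 members were then higher and 0 lower. The share of all genes was not computed for this last rule, so that count has nothing to be read against. With all hearts, 4 members were higher and 0 lower at an unadjusted p under 0.05, where 14.5% of all tested genes were higher. DESeq2, run as an alternative, called 3 members higher and 0 lower, and 6.21% of all genes higher. The log2 fold change was above 0 for 7 members, with a median of 0.22 over the 10 against 0.00 over all tested genes. In 0 members was every hMut heart above every Ctrl heart, a pattern that 0.543% of all tested genes showed. In bulk samples, fewer cells of a type and less RNA per cell cannot be told apart.

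**Figure D1:**
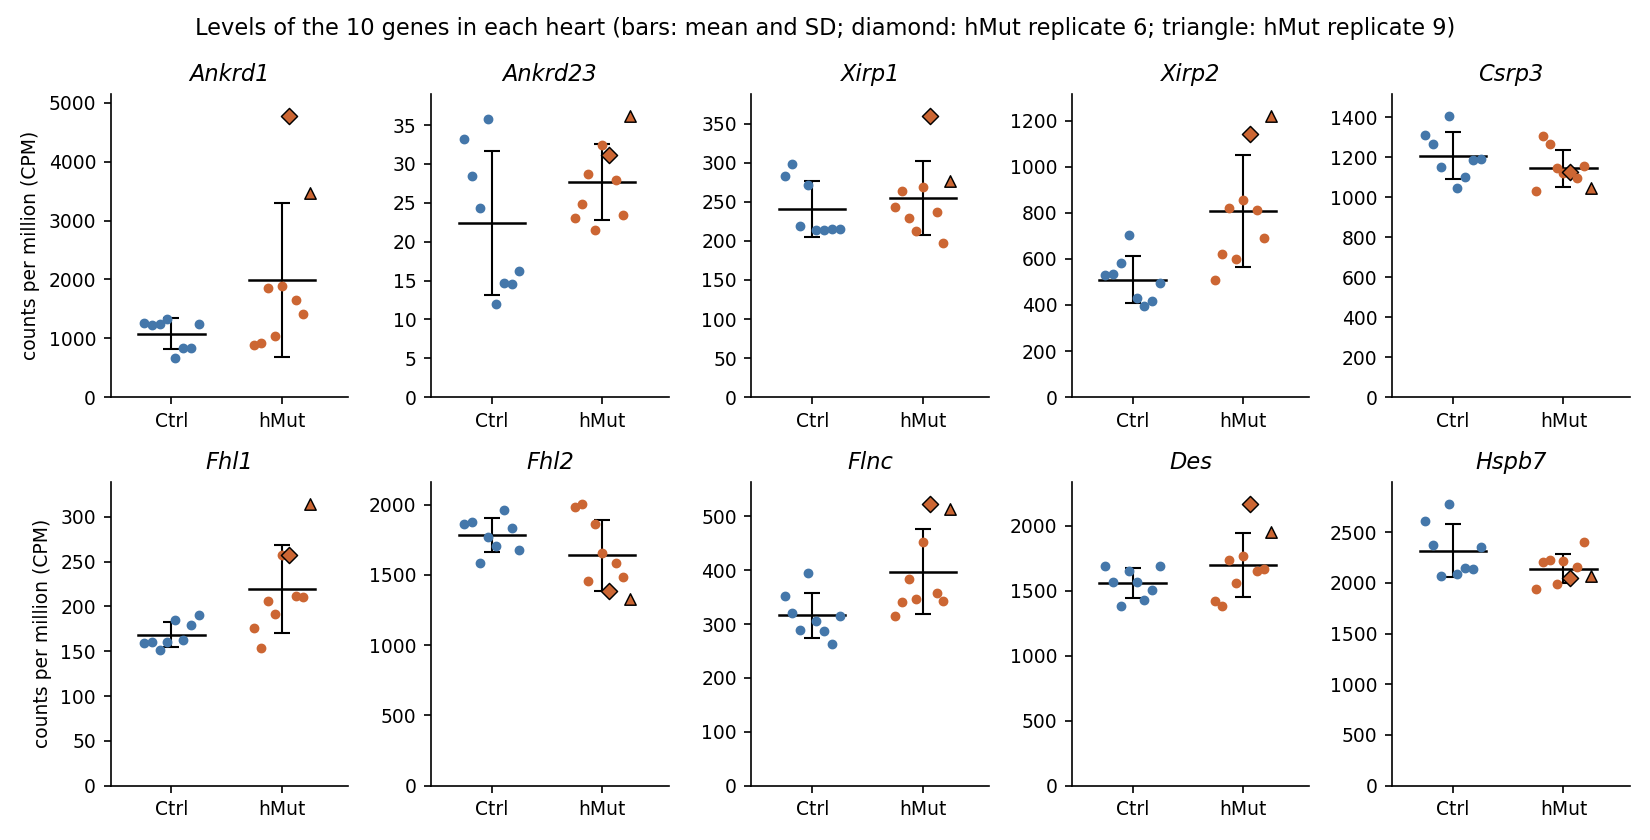
Level of each member in each heart, in CPM on a linear axis from 0, for 8 Ctrl (blue) and 9 hMut (orange) hearts. Lines and bars are the mean and SD, the diamond is hMut replicate 6 and the triangle hMut replicate 9. These hearts held the 2 highest levels of *Ankrd1*, *Xirp2*, *Flnc* and *Des* and the 2 lowest of *Fhl2*.

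Sequence upstream of the start sites was examined for motifs of factors known to act on load-responsive muscle genes. RefSeq start sites were given for 9 of the 10 members, in 14 windows of 250 bases before a start, each of which was found once near its gene in GRCm39; *Xirp1* had none. The CArG box (read by SRF) and the MEF2 site were searched together with GGAATG, the core of the M-CAT element read by TEAD factors, AGATAA, a motif of the GATA factors, and TGATGNAA, the composite motif of ATF4 and C/EBP, each on both strands. The 5 windows shown belong to 4 members, of which *Ankrd1*, *Xirp2* and *Fhl1* varied together among the hMut hearts and *Fhl2* the opposite way, as described below. *Des*, *Flnc* and *Ankrd23*, not shown, also varied with *Ankrd1*, and *Des* held none of the motifs. Whether the motifs go with the variation was not tested. Capitals mark the matches, and each line reads 5′ to 3′ toward the start site, from *Ankrd1* (chr19:36097245-36097494, minus strand), *Xirp2* (chr2:67276096-67276345, plus strand), *Fhl1* (chrX:55824793-55825042, plus strand) and *Fhl2*, start 1 (chr1:43235922-43236171, minus strand) and start 2 (chr1:43203122-43203371, minus strand).
Ankrd1: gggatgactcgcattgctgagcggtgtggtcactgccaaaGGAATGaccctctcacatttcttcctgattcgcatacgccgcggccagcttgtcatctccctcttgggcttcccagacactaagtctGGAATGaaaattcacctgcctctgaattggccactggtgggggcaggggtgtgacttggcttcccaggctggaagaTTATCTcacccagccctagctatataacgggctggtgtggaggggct
Xirp2: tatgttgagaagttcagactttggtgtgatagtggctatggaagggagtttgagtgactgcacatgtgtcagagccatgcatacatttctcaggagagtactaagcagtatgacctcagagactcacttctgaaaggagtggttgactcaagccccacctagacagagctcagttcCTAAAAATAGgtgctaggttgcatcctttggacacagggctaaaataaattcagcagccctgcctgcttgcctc
Fhl1: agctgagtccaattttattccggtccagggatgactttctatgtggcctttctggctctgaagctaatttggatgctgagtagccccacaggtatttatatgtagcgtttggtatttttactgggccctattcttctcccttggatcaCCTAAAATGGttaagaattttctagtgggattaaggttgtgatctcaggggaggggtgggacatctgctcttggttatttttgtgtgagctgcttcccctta
Fhl2 start 1: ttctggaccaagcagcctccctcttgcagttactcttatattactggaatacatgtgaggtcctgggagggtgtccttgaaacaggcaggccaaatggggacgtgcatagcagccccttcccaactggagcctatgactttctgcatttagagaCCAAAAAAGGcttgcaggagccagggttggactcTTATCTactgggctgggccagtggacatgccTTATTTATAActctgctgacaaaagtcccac
Fhl2 start 2: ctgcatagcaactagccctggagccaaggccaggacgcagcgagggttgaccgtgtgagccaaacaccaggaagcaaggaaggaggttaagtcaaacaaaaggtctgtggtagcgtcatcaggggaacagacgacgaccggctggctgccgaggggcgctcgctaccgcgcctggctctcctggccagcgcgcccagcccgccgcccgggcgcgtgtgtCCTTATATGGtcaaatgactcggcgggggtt

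The *Ankrd1* window held GGAATG at 2 places, 210 to 205 and 123 to 118 bases before the start, and AGATAA 47 to 42 bases before it. *Xirp2* held a MEF2 site 74 to 65 bases before its start, and the *Fhl1* window shown a CArG box 102 to 93 bases before. These starts lay far inside the annotated spans, by 272168 bases in *Xirp2* and 47896 bases in *Fhl1*. The first *Fhl2* start held a CArG box (96 to 87 bases before), AGATAA (62 to 57) and a MEF2 site (31 to 22), and the second a CArG box (31 to 22). Of the windows not shown, 1 of *Ankrd23* and 1 of *Flnc* held GGAATG, and the other of *Ankrd23* held AGATAA. The other window of *Flnc*, the second of *Fhl1* and those of *Csrp3*, *Des* and *Hspb7* held none of the motifs. A CArG box was present in 3 of the 14 windows against 1.47% of 32841 windows of all genes, and a MEF2 site in 2 against 2.92%. GGAATG was in 3 windows against 12.6% of all, AGATAA in 3 against 9.99% and TGATGNAA in 0 against 3.45%. The windows of 1 gene can overlap, and a match is a description of the letters only.

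*Xirp2* (ENSMUSG00000027022, GRCm39 chr2:67004178-67356959, plus strand), an actin-binding Xin protein, was the member that passed the test. Its lowest, median and highest levels were 394, 513 and 703 CPM in the 8 Ctrl hearts and 508, 810 and 1220 CPM in the 9 hMut hearts. In 5 of 9 hMut hearts it was above every Ctrl heart and in 8 of 9 above the Ctrl median, so the groups overlapped. The mean rose from 510 ± 101 CPM (SD, n = 8) to 808 ± 242 CPM (SD, n = 9), a log2 fold change of 0.66 (SE 0.16, adjusted p = 0.0286, edgeR). Without hMut replicates 6 and 9 the mean of the other 7 hMut hearts was 701 ± 133 CPM and the log2 fold change 0.46 (adjusted p = 0.0604, edgeR), past the threshold no longer. Leaving out any 1 of Ctrl replicates 5 to 8 or of hMut replicates 5, 7 and 9 also ended the call, and over the 17 such fits the adjusted p lay between 0.0106 and 0.0621.

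*Xirp1* (ENSMUSG00000079243, GRCm39 chr9:119842821-119852664, minus strand), its paralog, was at 241 ± 36.3 CPM (SD, n = 8) in Ctrl and 254 ± 47.4 CPM (SD, n = 9) in hMut hearts. Its levels ran from 213 to 298 CPM in Ctrl and from 198 to 360 CPM in hMut, and 1 hMut heart (replicate 6) was above and 2 were below every Ctrl heart. The log2 fold change was 0.08 (SE 0.11, adjusted p = 0.660, edgeR), and it was -0.03 without hMut replicates 6 and 9. All 9844 bases of *Xirp1* lie within the annotated span of *Cx3cr1*, a chemokine receptor gene of macrophages on the same strand that held 530 counts per library, so reads shared by both are uncertain.

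*Ankrd1* (ENSMUSG00000024803, GRCm39 chr19:36089361-36097499, minus strand) had the highest log2 fold change of the members and did not pass the test. Its lowest, median and highest levels were 670, 1237 and 1330 CPM in Ctrl and 882, 1656 and 4778 CPM in hMut hearts. Every Ctrl heart was exceeded by 6 of the 9 hMut hearts, led by replicates 6 and 9 (4778 and 3475 CPM), and the other 3 (882 to 1044 CPM) lay inside the Ctrl range. The mean was 1080 ± 257 CPM (SD, n = 8) in Ctrl and 1992 ± 1309 CPM (SD, n = 9) in hMut, with a log2 fold change of 0.88 (SE 0.30, adjusted p = 0.0921, edgeR). The SD was 23.8% of the mean in Ctrl and 65.7% in hMut, the widest spread of any member in hMut. Without replicates 6 and 9 the hMut mean was 1382 ± 435 CPM and the log2 fold change 0.36 (adjusted p = 0.316, edgeR). Its span overlaps an antisense long noncoding RNA over 3639 bases, which held 95.1 counts per library.

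*Ankrd23* (ENSMUSG00000067653, GRCm39 chr1:36569269-36575964, minus strand) was the least abundant member, at 22.4 ± 9.29 CPM (SD, n = 8) in Ctrl and 27.7 ± 4.94 CPM (SD, n = 9) in hMut. The 8 Ctrl hearts fell into 4 (replicates 1 to 4) at 24.3 to 35.8 CPM and 4 (replicates 5 to 8) at 12.0 to 16.3 CPM. The 9 hMut hearts lay between 21.5 and 36.2 CPM, all above the Ctrl median of 20.3 CPM but 1 of them above every Ctrl heart. The log2 fold change was 0.31 (SE 0.20, adjusted p = 0.332, edgeR), and 0.215 without hMut replicates 6 and 9 (adjusted p = 0.615). The annotated span of *Gm42417*, a protein-coding gene on the same strand, overlaps *Ankrd23* over 6691 bases and held 0.471 counts per library. Reads shared by both are therefore uncertain, and with them the low level of *Ankrd23*.

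Of the LIM domain members, *Fhl1* (ENSMUSG00000023092, GRCm39 chrX:55777147-55838706, plus strand) separated the groups most often, heart by heart. Its lowest, median and highest levels were 152, 162 and 190 CPM in Ctrl and 154, 211 and 314 CPM in hMut, with 7 of 9 hMut hearts above every Ctrl heart. Replicates 1 and 2 were the hMut hearts inside the Ctrl range, at 175 and 154 CPM. The mean was 169 ± 14.0 CPM (SD, n = 8) in Ctrl and 220 ± 48.9 CPM (SD, n = 9) in hMut, with a log2 fold change of 0.38 (SE 0.11) that missed the threshold (adjusted p = 0.0537, edgeR). DESeq2 gave an adjusted p of 0.0155 for the same difference, and edgeR without hMut replicates 6 and 9 gave a log2 fold change of 0.25 (adjusted p = 0.116).

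*Fhl2* (ENSMUSG00000008136, GRCm39 chr1:43162234-43236144, minus strand) had 1785 ± 123 CPM (SD, n = 8) in Ctrl and 1638 ± 255 CPM (SD, n = 9) in hMut hearts. In hMut it lay on both sides of the Ctrl range of 1587 to 1963 CPM, with 5 hearts below it (1327 to 1582 CPM) and replicates 1 and 2 above it (1985 and 2001 CPM). The log2 fold change was -0.12 (SE 0.08, adjusted p = 0.350, edgeR), and -0.05 without hMut replicates 6 and 9 (adjusted p = 0.734). *Csrp3* (ENSMUSG00000030470, GRCm39 chr7:48480146-48497781, minus strand) had 1208 ± 116 CPM (SD, n = 8) in Ctrl and 1144 ± 90.9 CPM (SD, n = 9) in hMut hearts, where only *Hspb7* had a narrower spread (an SD of 6.66% of the mean, against 7.94% for *Csrp3*). Its log2 fold change was -0.08 (SE 0.06, adjusted p = 0.437, edgeR), and -0.06 without those hearts (adjusted p = 0.675). The sign of both differences depended on the scaling: scaled on the cardiomyocyte markers, the log2 fold change was 0.08 for *Fhl2* and 0.14 for *Csrp3*, both below the 0.225 to which this scaling moved the median of all genes.

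Of the filament members, *Flnc* (ENSMUSG00000068699, GRCm39 chr6:29433255-29461882, plus strand) had lowest, median and highest levels of 263, 310 and 395 CPM in Ctrl and 316, 357 and 522 CPM in hMut. All 9 hMut hearts exceeded the Ctrl median, and replicates 5, 6 and 9 exceeded the highest Ctrl heart. The mean was 316 ± 41.4 CPM (SD, n = 8) in Ctrl and 397 ± 78.7 CPM (SD, n = 9) in hMut, with a log2 fold change of 0.33 (SE 0.11, adjusted p = 0.0795, edgeR), which was 0.20 without hMut replicates 6 and 9 (adjusted p = 0.202). *Des* (ENSMUSG00000026208, GRCm39 chr1:75336973-75345223, plus strand) had 1558 ± 117 CPM (SD, n = 8) in Ctrl and 1699 ± 246 CPM (SD, n = 9) in hMut, and 4 hMut hearts (replicates 3, 5, 6 and 9, at 1737 to 2162 CPM) were above the highest Ctrl heart at 1691 CPM. Its log2 fold change was 0.12 (SE 0.08, adjusted p = 0.328, edgeR), and 0.04 without those hearts (adjusted p = 0.807).

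*Hspb7* (ENSMUSG00000006221, GRCm39 chr4:141148090-141152622, plus strand), the chaperone member, had 2320 ± 261 CPM (SD, n = 8) in Ctrl and 2141 ± 143 CPM (SD, n = 9) in hMut hearts. It was below every Ctrl heart in 4 hMut hearts (1943 to 2070 CPM) and above the Ctrl median in 1. The log2 fold change was -0.12 (SE 0.07, adjusted p = 0.276, edgeR) and -0.10 without hMut replicates 6 and 9 (adjusted p = 0.457), and it was 0.11 when scaled on the cardiomyocyte markers, again below that median.

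**Figure D2:**
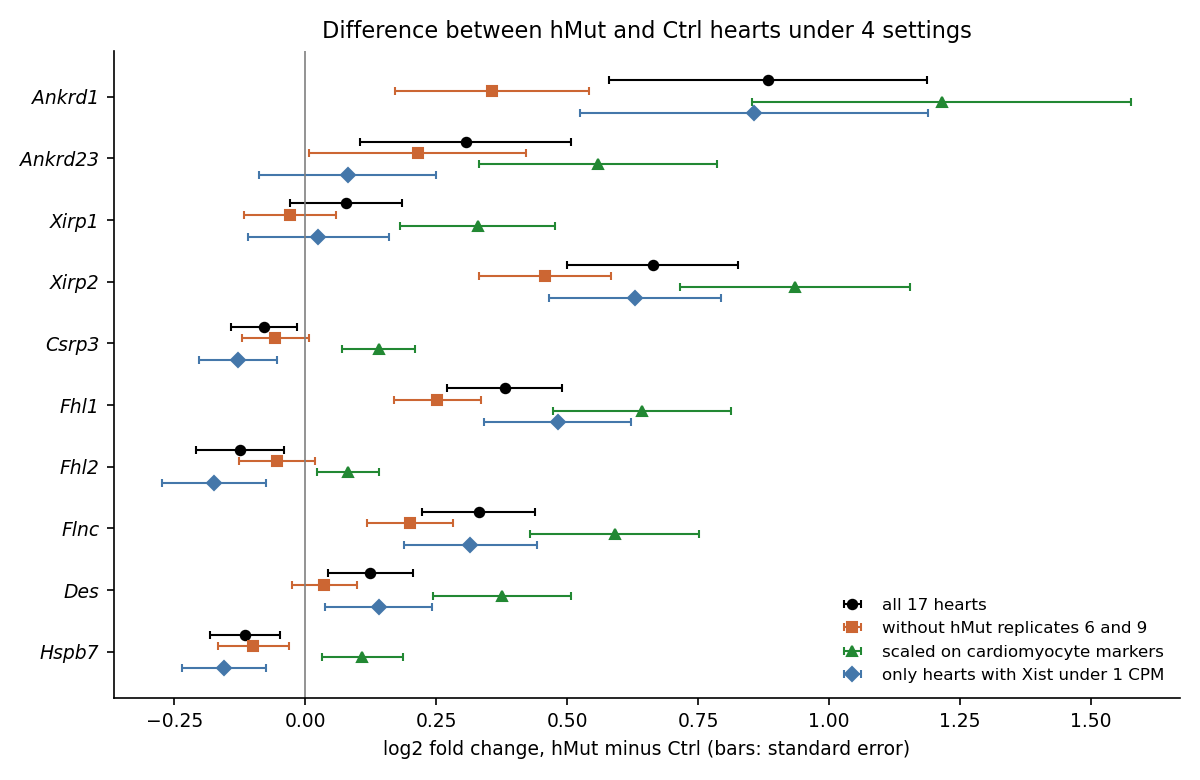
Log2 fold change of each member, hMut minus Ctrl, with its standard error, from edgeR fits to all 17 hearts (circles), without hMut replicates 6 and 9 (squares), with the library scaled on 12 cardiomyocyte markers (triangles) and in the 12 hearts with *Xist* under 1 CPM (diamonds). *Xirp2* stayed above 0 in all of them, between 0.46 and 0.94, whereas *Csrp3*, *Fhl2* and *Hspb7* lay below 0 except under the marker scaling.

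To compare levels between genes, CPM was divided by the gene length given in the table (CPM per kb). In Ctrl hearts the order of these levels was *Fhl2* (941 ± 65.0 CPM per kb, SD, n = 8), *Hspb7* (838), *Csrp3* (452), *Des* (415) and *Ankrd1* (374), followed at a level about an order of magnitude lower by *Fhl1* (45.4), *Xirp1* (38.7), *Xirp2* (35.5) and *Flnc* (33.6), with *Ankrd23* last (8.31 ± 3.45 CPM per kb). Neighbours from *Fhl2* to *Hspb7*, from *Csrp3* to *Ankrd1* and from *Fhl1* to *Flnc* were not in this order in every Ctrl heart: *Fhl2* was above *Hspb7* in 7 of 8 hearts, *Csrp3* above *Des* in 6 of 8 hearts, and *Xirp2* above *Flnc* in 5. In hMut hearts *Ankrd1* came after *Hspb7* (690 ± 454 CPM per kb, SD, n = 9) and was above *Des*, the next in order, in 6 of 9 hearts. *Xirp2* came after *Fhl1* there (56.2 ± 16.8 CPM per kb) and was above *Flnc*, the next, in 9 of 9 hearts. These positions were not tested.

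**Figure D3:**
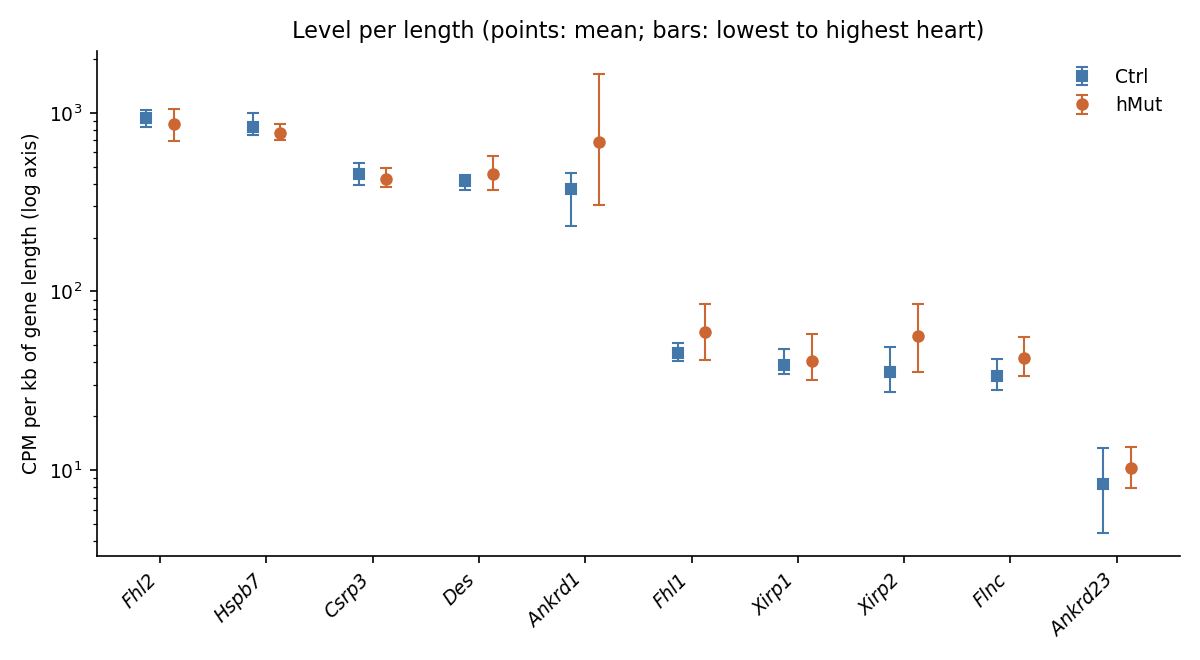
Mean level of each member in CPM per kb of gene length on a log axis, in Ctrl (blue squares) and hMut (orange circles) hearts; bars run from the lowest to the highest heart. 5 members lay above 200 CPM per kb in every heart and the other 5 below 100, and *Ankrd1* had the longest bar in hMut, from 306 to 1656 CPM per kb.

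How the members varied among themselves was examined by the correlation of log2 CPM (prior count 2) with that of *Ankrd1*, within each group, for 18 relations in all. Hearts with much *Ankrd1* also had much of 5 other members in the hMut group. Over the 9 hMut hearts, Pearson's r was 0.97 for *Xirp2* (Spearman's rho 0.97; exact permutation p = 7.99e-05, adjusted p = 0.000479) and 0.98 for *Des* (rho 0.97; exact permutation p = 1.93e-05, adjusted p = 0.000174). It was 0.94 for *Flnc* (rho 0.98; exact permutation p = 1.1e-05, adjusted p = 0.000174), 0.87 for *Fhl1* (rho 0.92; exact permutation p = 0.00266, adjusted p = 0.00959) and 0.83 for *Ankrd23* (rho 0.87; exact permutation p = 0.00567, adjusted p = 0.017). *Fhl2* varied in the opposite direction, with r = -0.88 (rho -0.85; exact permutation p = 0.00189, adjusted p = 0.00849). The adjusted p of rho lay between 0.000893 and 0.0156 for these 6 members. All values share the library scaling of their heart, and the tests were two-sided. How many of all tested genes ran as closely with *Ankrd1* was not computed, so the relations are not shown to be particular to the members. Over the 17 hearts, genes outside the list were nearer in rank to *Xirp2* than *Ankrd1* was, as given below.

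Replicates 6 and 9 were the 2 hearts farthest from the median of *Ankrd1*, and without them, over 7 hMut hearts, r was 0.96 for *Xirp2*, 0.95 for *Des*, 0.79 for *Flnc*, 0.85 for *Fhl1*, 0.81 for *Ankrd23* and -0.87 for *Fhl2*. The relation of *Xirp1* (r = 0.69, exact permutation p = 0.0385, adjusted p = 0.0693) rested on these hearts, since r was -0.01 without them. *Csrp3* (r = -0.25, exact permutation p = 0.523, adjusted p = 0.589) and *Hspb7* (r = -0.01, exact permutation p = 0.982, adjusted p = 0.982) showed no relation past the threshold. In Ctrl hearts, where *Ankrd1* spanned a narrower range, r passed the threshold for *Ankrd23* (0.85, rho 0.90, exact permutation p = 0.00823, adjusted p = 0.0212), *Xirp2* (0.83, rho 0.81, exact permutation p = 0.0131, adjusted p = 0.0295) and *Csrp3* (0.79, rho 0.83, exact permutation p = 0.0166, adjusted p = 0.0332). Without Ctrl replicates 5 and 6, r was 0.72, 0.81 and 0.45 for these genes over 6 hearts. In Ctrl, r was 0.35 for *Des*, 0.59 for *Flnc*, -0.49 for *Fhl1* and -0.20 for *Fhl2*, none past the threshold (exact permutation p from 0.125 to 0.634, adjusted p from 0.173 to 0.672). Whether the relations differed between the groups was not tested.

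**Figure D4:**
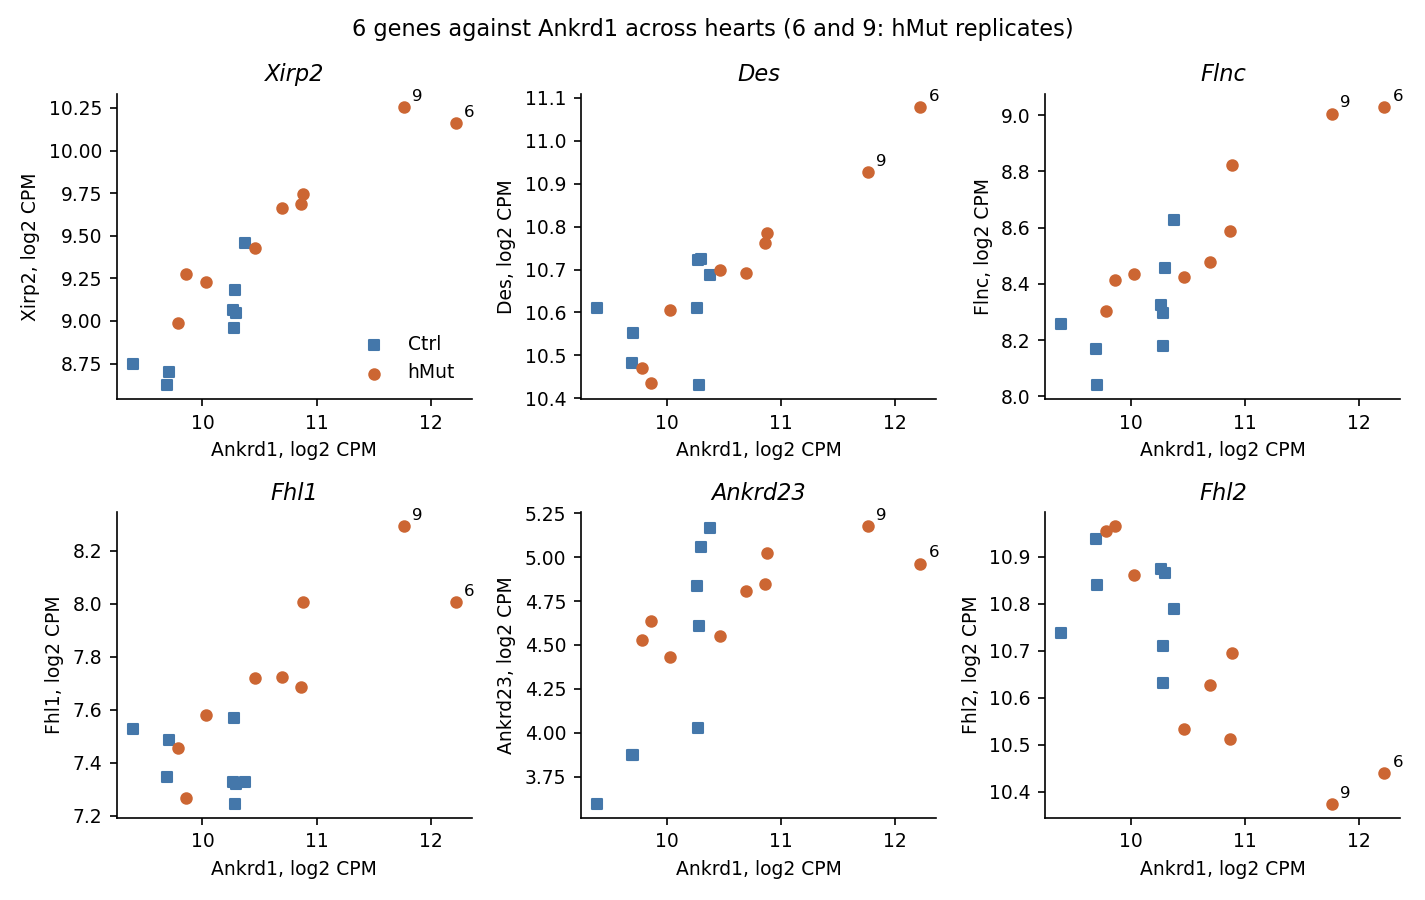
Log2 CPM (prior count 2) of 6 members against that of *Ankrd1*, for 8 Ctrl (blue squares) and 9 hMut (orange circles) hearts, with hMut replicates 6 and 9 numbered. Among hMut hearts 5 members rise along the axis and *Fhl2* falls, with r from 0.83 to 0.98 for the former and -0.88 for the latter.

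Levels of *Ankrd1* and *Xirp2* were also read by *Xist*, and both were lower in the Ctrl hearts with *Xist*. In Ctrl, *Ankrd1* was at 670 to 835 CPM in the 3 hearts with *Xist* and at 1232 to 1330 CPM in the 5 without, and *Xirp2* at 394 to 430 CPM against 497 to 703 CPM, with no overlap in either gene. In hMut, *Ankrd1* was at 882 and 1044 CPM in the 2 hearts with *Xist* and at 928 to 4778 CPM in the other 7. With *Xist* (at least 1 CPM or under) as a term beside the condition, the log2 difference of hearts with *Xist* was -0.94 for *Ankrd1* (adjusted p = 0.232, edgeR), -0.71 for *Ankrd23* (adjusted p = 0.0582) and -0.55 for *Xirp2* (adjusted p = 0.0999). None of the 10 members passed for this term, against 0.463% of all tested genes. With the log2 CPM of *Xist* as a covariate instead, the difference between hMut and Ctrl in *Xirp2* was 0.53 (adjusted p = 0.0244, edgeR). In the 12 hearts with *Xist* under 1 CPM it was 0.63 (adjusted p = 0.101, edgeR). Within the 7 hMut hearts with *Xist* under 1 CPM, r with *Ankrd1* was 0.96 for *Xirp2* (exact permutation p = 0.00139, adjusted p = 0.00417 over 9 relations), 0.98 for *Des* (exact permutation p = 0.000595, adjusted p = 0.00268), 0.92 for *Flnc* (exact permutation p = 0.000198, adjusted p = 0.00178), 0.84 for *Fhl1* (exact permutation p = 0.0226, adjusted p = 0.0472) and -0.81 for *Fhl2* (exact permutation p = 0.0262, adjusted p = 0.0472). For *Ankrd23* it was 0.76 (exact permutation p = 0.047, adjusted p = 0.0705). No correlation was computed in the other sets, which had fewer than 6 hearts each.

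Other genes of the same structures were taken from lists of related genes. Of 20 further Z-disc genes, 1 was higher and 0 lower, with a median log2 fold change of -0.12. The gene that rose was *Pdlim7*, which encodes a PDZ and LIM domain protein, from 24.0 ± 2.02 CPM (SD, n = 8) to 29.1 ± 2.74 CPM (SD, n = 9), a log2 fold change of 0.28 (adjusted p = 0.0197, edgeR). *Fbxo32*, a ubiquitin ligase subunit of muscle atrophy, had a log2 fold change of -0.22 (adjusted p = 0.0602, edgeR), and *Tcap*, the titin cap telethonin, at 1596 ± 414 and 1110 ± 331 CPM (adjusted p = 0.0781, edgeR).

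Among 10 related ankyrin repeat and LIM genes, 0 passed in either direction (median log2 fold change 0.03). The nearest was *Zyx* (zyxin, a focal adhesion protein), at 39.8 ± 3.73 CPM (SD, n = 8) in Ctrl and 56.2 ± 16.9 CPM (SD, n = 9) in hMut, with a log2 fold change of 0.50 (adjusted p = 0.0592, edgeR). *Lmo7* and *Ablim1* were the next, with log2 fold changes of -0.24 and -0.23 (adjusted p = 0.0725 and 0.0786, edgeR). Among 13 filament and costamere genes 0 passed (median 0.03), with *Flna*, the gene of filamin A, at 0.24 (adjusted p = 0.0934, edgeR) and *Lmna* at 0.17 (adjusted p = 0.156, edgeR).

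Of 12 small heat shock and chaperone genes 1 was higher and 0 lower (median log2 fold change 0.06). *Hspb1*, a small heat shock protein of actin and desmin filaments, rose from 112 ± 12.3 CPM (SD, n = 8) to 146 ± 18.6 CPM (SD, n = 9), above every Ctrl heart in 8 of 9 hMut hearts (log2 fold change 0.39, adjusted p = 0.00973, edgeR). *Hspb8* was at 532 ± 53.6 and 619 ± 67.1 CPM (adjusted p = 0.0796, edgeR), and *Stub1* at 39.8 ± 1.12 and 36.9 ± 3.16 CPM (adjusted p = 0.168, edgeR). Of 16 mechanosensitive regulators and load markers 2 were higher and 0 lower (median 0.17). *Ccn2*, a matricellular target of YAP and TEAD, rose from 40.4 ± 12.8 CPM (SD, n = 8) to 105 ± 63.2 CPM (SD, n = 9), with a log2 fold change of 1.38 (adjusted p = 0.0183, edgeR). *Acta1*, the skeletal actin gene that fetal and loaded hearts express, rose from 274 ± 66.9 to 678 ± 418 CPM, with a log2 fold change of 1.31 (adjusted p = 0.0385, edgeR). *Nppb*, the B-type natriuretic peptide gene, was at 164 ± 78.6 and 394 ± 242 CPM (adjusted p = 0.0582, edgeR). Without hMut replicates 6 and 9, the genes of these 5 lists past the threshold numbered 2 in place of 4. As summed CPM, the Z-disc list and the ankyrin and LIM list were each below every Ctrl heart in 7 of 9 hMut hearts, and the cardiomyocyte markers in 2. The mechanosensitive list exceeded all Ctrl hearts in 6 of 9, the filament list in 4 and the small heat shock list in 0. Such sums follow the most abundant genes of a list. In the ankyrin and LIM list, *Ablim1* and *Lmo7* had Ctrl means of 563 and 512 CPM, beside a median sum of 1426 CPM. Genes with a log2 fold change above 0 numbered 5 of 10 in that list, 6 of 20 in the Z-disc list and 11 of 16 in the mechanosensitive list.

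The genes whose ranks over the 17 hearts were closest to those of the 3 members with the smallest adjusted p were found by the mean absolute difference of ranks. For *Xirp2* these were *Prnp* (0.82 ranks), *Gm12346* and ENSMUSG00000120961 (1.06 each), while *Ankrd1* and *Flnc* were at 1.53 ranks. For *Fhl1* they were *Mif* (1.06), *Spsb2* and *Vgll2* (1.18 each), with *Des* the closest member at 2.71. For *Flnc* they were *Rrp12* (1.18), *Tnip1* and *Tgm2* (1.29 each), with *Xirp2* the closest member at 1.53.

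Markers of other cell types were read in the same hearts. Myeloid markers (0 of 7 past the threshold) summed to 171 to 259 CPM in Ctrl and 218 to 901 CPM in hMut, and fibroblast markers (0 of 7) to 860 to 1026 and 869 to 1756 CPM, with the highest sums of both in hMut replicate 6. Endothelial markers (1 of 6 higher, *Kdr*) summed to 769 to 951 and 833 to 1124 CPM, and smooth muscle markers (1 of 6 lower, *Smtn*) to 222 to 359 and 202 to 318 CPM. Of the 6 smooth muscle markers, 5 had a log2 fold change above 0. Lymphoid markers (0 of 8) summed to 1.70 to 46.1 and 3.54 to 36.7 CPM and skeletal muscle markers (0 of 4 tested) to 1.77 to 2.96 and 2.52 to 4.34 CPM. Atrial markers (1 of 4 tested higher, *Bmp10*) summed to 24.8 to 43.1 and 34.2 to 66 CPM. Of these, *Myl7* and *Sln* were at or under 0.514 CPM in every heart. *Bmp10* was at 0.216 ± 0.0845 CPM (SD, n = 8) in Ctrl and 10.6 ± 7.86 CPM (SD, n = 9) in hMut, above every Ctrl heart in 9 of 9 (log2 fold change 5.58, adjusted p = 3.3e-05, edgeR). The log2 fold change was 1.04 for *Dkk3*, 0.14 for *Myl4* and -0.27 for *Stard10* (adjusted p = 0.12, 0.63 and 0.31, edgeR). With the cardiomyocyte marker sum as a covariate 0 members were called, against 0.475% of all genes higher, and the log2 fold change was 0.016 for *Ankrd1*, 0.31 for *Xirp2*, 0.11 for *Fhl1* and 0.13 for *Flnc*. The sum of these cardiomyocyte markers itself differed between the groups, with medians of 66080 CPM in Ctrl and 57810 CPM in hMut. This fit therefore cannot part the markers from the condition. With the library scaled on these markers 5 members were called, all higher (*Ankrd1*, *Xirp2*, *Fhl1*, *Flnc* and *Des*), against 28.4% of all genes higher and a median of all genes at 0.225. The part of the other cell types in the results was not tested.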

How the data were processed

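Bulk RNA-seq was analysed for 17 mouse hearts, grouped from the labels. Per the study's methods and processing notes, the authors trimmed reads with fastp, mapped them to GRCm39 (HISAT2 2.2.1) and summarised them by gene (featureCounts 2.0.6). The deposited counts carry no normalization. The strand setting is not given in the sources used here.

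Counts were tested with edgeR 4.0.16 (R 4.3.3; TMM, filterByExpr, quasi-likelihood test, condition as the only term), adjusted by Benjamini-Hochberg over 16195 genes at 0.05. Standard errors were derived from F, and the test was tried on simulated data. Of 136 library pairs 0 were identical (Spearman 0.950 to 0.995). Members held 446 to 201712 counts per heart, and p-values measure the spread between these mice. Correlations used exact permutation (scipy 1.17.1). Windows came from RefSeq.

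The members, lists and tests were chosen with earlier results of these data known. Named genes are the members, the targeted gene, the 3 genes of each list with the smallest adjusted p (for marker lists, only some are printed), those past the threshold in the 5 related lists, and the 3 genes nearest in rank to 3 members. A gene that this rule would name is not reported here. Alternatives were DESeq2 1.42.0, limma 3.58.1 (voom, quality weights), other scalings, filters and covariates, a replicate block, and libraries left out.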

Additional observations from a re-analysis of the deposited data

How the results depend on the processing

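The members higher in hMut numbered 1 and the other genes past the threshold in the 5 related lists 4. These counts were 3 and 17 with DESeq2, 3 and 17 with limma-voom and quality weights, 5 and 30 with scaling on cardiomyocyte markers, 0 and 2 without hMut replicates 6 and 9, 0 and 1 without Ctrl replicates 2 and 3, 0 and 0 with the atrial marker sum as a covariate, and, chosen after seeing the data, 0 and 0 in the hearts with *Xist* under 1 CPM (where 5 fewer hearts were tested) and 0 and 0 with the cardiomyocyte marker sum as a covariate. With each library left out in turn they ranged from 0 to 4 and from 3 to 19, the highest without hMut replicate 2. The other causes were not tested. In all these settings, 0 members were lower. The result with the atrial covariate depended on *Bmp10*. Without this gene in the sum, a version chosen after seeing the data, the counts were 1 and 5. RLE and upper-quartile factors, removal of mtDNA-encoded genes and other filters gave 1 and 4, and the log2 CPM of *Xist* as a covariate 1 and 3.

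Replicate numbers are library numbers, and the labels name no pairing of animals. The deviations of same-numbered hearts correlated at -0.23 to 0.34, over 0.1 in 1 of 8 pairs, which cannot exclude a pairing. With a replicate block, 0 members and 1 related gene were called. Over all genes, 564 were higher and 185 lower. DESeq2 gave 1010 and 507, limma-voom 1175 and 906, the block 169 and 26, and the marker scaling 4598 and 96, with a median shift of 0.225 (log2). These counts were 306 and 67 without Ctrl replicates 2 and 3, and 316 and 115 without hMut replicates 6 and 9. They were 39 and 3 with the atrial covariate, 77 and 16 with the cardiomyocyte covariate, and 122 and 17 in hearts with *Xist* under 1 CPM. With 1 library left out, from 326 (hMut replicate 5) to 1128 (hMut replicate 2) genes were higher. The member counts are to be read beside these.

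The log2 fold change changed sign for *Csrp3* (0.14 with marker scaling, 0.054 with the atrial and 0.007 with the cardiomyocyte covariate), *Fhl2* (0.082, 0.006 and 0.047 likewise), *Hspb7* (0.109 with marker scaling), *Xirp1* (-0.029 without hMut replicates 6 and 9, -0.036 with the cardiomyocyte covariate) and *Des* (-0.024 with that covariate). The size of the others moved too: with the cardiomyocyte covariate *Ankrd1* went from 0.883 to 0.016, *Xirp2* from 0.663 to 0.311, *Fhl1* from 0.381 to 0.109, *Flnc* from 0.331 to 0.129 and *Ankrd23* from 0.306 to 0.179, and with the atrial covariate *Ankrd1* was 0.305, *Xirp2* 0.498, *Fhl1* 0.091, *Flnc* 0.242 and *Ankrd23* 0.506. The cardiomyocyte marker sum itself differed between the groups, so the fit with it cannot part the markers from the condition. *Xirp2* passed in 10 of 17 fits without 1 library and in 10 of 16 others. A change of prior count to 0.5 or a division by gene length cannot move the differences of genes at these counts and tests nothing. Each member had at least 446 counts in every heart.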

Other observations

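Transcripts of the contractile apparatus that the members attach to were read beside them. Of the 12 cardiomyocyte markers 0 passed the test (edgeR; 0 with a log2 fold change above 0, median -0.23). *Myh6*, the main adult myosin heavy chain gene, was at 14920 ± 1325 CPM (SD, n = 8) in Ctrl and 11810 ± 1809 CPM (SD, n = 9) in hMut hearts (adjusted p = 0.0601, edgeR). *Tnni3*, cardiac troponin I, was below every Ctrl heart in 8 of 9 hMut hearts (log2 fold change -0.43, adjusted p = 0.0629, edgeR), and *Pln*, phospholamban, in 7 of 9 (log2 fold change -0.35, adjusted p = 0.0689, edgeR). Among the markers of other cell types, *Smtn*, smoothelin, fell from 140 ± 10.5 to 109 ± 16.6 CPM (log2 fold change -0.36, adjusted p = 0.0174, edgeR). It went against its list, where 5 of 6 smooth muscle markers had a log2 fold change above 0 (median 0.22). *Kdr*, a receptor of vascular endothelial growth factor, rose from 223 ± 34.3 to 292 ± 48.9 CPM (log2 fold change 0.39, adjusted p = 0.0407, edgeR).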
